A study of Mus musculus with 4 samples.

Results

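Fos summits were mapped around 10 genes that drive or restrain the G1 phase of the cell cycle in mouse colonic epithelium: the D cyclins Ccnd1, Ccnd2 and Ccnd3, the E cyclins Ccne1 and Ccne2, the kinases Cdk2, Cdk4 and Cdk6, the inhibitor Cdkn1b and the pocket protein gene Rb1. The genes were chosen by name, and a summit was counted when it lay inside the gene or within 50 kb of either end. All 10 symbols matched the gene table, out of 21631 protein-coding genes on the numbered chromosomes and X, and their windows held 312 of the 178981 summits in the list. No summit fell in the windows of more than 1 of the genes.

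The assay was CUT&Tag, in which a Tn5 transposase tethered to an antibody, here against Fos, inserts sequencing adapters beside the bound protein in permeabilised nuclei. Of the 4 libraries, 2 came from WT mice that had recovered from colitis and 2 from healthy WT controls, and all carried the same batch label. The recovered animals had drunk dextran sodium sulfate (DSS), which damages the lining of the colon, at 1 to 1.5% over 3 cycles, each with 7 days of DSS and 10 days without. Their tissue was taken 22 days after the last DSS cycle. Mucosa was scraped from colons held for 30 min in 4 mM EDTA. The sources used here gave no ages. The deposited peaks form a single list on mm10 for the series, without a value for any library. Which of the 4 libraries entered it is not stated, so each fold and fragment count may stand for all of them or for some. The recovered and the healthy colon therefore could not be compared, no value below has a replicate error, and no test between conditions was possible. Tn5 also cuts accessible DNA in the absence of Fos, and how much of the signal this gave was not measured, since no library with an untargeted antibody was used here.

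G1 is the interval in which a cell commits to divide. D cyclins accumulate in response to growth signals and activate Cdk4 and Cdk6, which phosphorylate the retinoblastoma protein encoded by Rb1; this frees E2F factors to switch on Ccne1, Ccne2 and other S phase genes, and cyclin E then activates Cdk2. Cdkn1b encodes p27, which binds and inhibits cyclin E with Cdk2. Fos is a subunit of AP-1, a leucine zipper factor induced by mitogens and injury, and AP-1 is known as a regulator of Ccnd1 in cultured fibroblasts. The colonic epithelium renews from dividing cells at the base of its crypts.

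The promoters of Cdk4, Ccne1, Cdkn1b and Cdk2 are shown because in these 4 genes a Fos summit lay inside the promoter window itself. Each sequence is RefSeq's on GRCm38.p6, the assembly that mm10 names, and runs 5′ to 3′ from 250 bases before the start of transcription to 50 bases from it. Capitals mark the 21 bases centred on the strongest summit in the window. The Cdk4 window is chr10:127063285-127063584 on the plus strand, that of Ccne1 chr7:38107441-38107740 on the minus strand, that of Cdkn1b chr6:134920151-134920450 on the plus strand and that of Cdk2 chr10:128705002-128705301 on the minus strand.
Cdk4: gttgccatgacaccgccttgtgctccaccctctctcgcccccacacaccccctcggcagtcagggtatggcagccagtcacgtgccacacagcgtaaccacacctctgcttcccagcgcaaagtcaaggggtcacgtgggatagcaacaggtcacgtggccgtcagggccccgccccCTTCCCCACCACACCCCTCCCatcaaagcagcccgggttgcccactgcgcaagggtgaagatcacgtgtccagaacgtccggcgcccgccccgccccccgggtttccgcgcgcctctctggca
Ccne1: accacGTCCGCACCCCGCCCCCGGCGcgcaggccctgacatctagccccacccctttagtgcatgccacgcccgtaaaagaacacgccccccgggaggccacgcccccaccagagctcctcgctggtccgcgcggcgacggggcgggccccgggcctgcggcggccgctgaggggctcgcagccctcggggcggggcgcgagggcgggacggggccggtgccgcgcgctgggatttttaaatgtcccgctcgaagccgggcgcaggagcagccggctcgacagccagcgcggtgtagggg
Cdkn1b: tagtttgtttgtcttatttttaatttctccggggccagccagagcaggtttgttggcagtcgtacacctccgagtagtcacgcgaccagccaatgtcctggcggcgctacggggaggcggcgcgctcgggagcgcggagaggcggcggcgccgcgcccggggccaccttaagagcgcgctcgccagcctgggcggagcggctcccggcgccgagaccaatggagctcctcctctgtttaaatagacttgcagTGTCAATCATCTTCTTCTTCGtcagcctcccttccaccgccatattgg
Cdk2: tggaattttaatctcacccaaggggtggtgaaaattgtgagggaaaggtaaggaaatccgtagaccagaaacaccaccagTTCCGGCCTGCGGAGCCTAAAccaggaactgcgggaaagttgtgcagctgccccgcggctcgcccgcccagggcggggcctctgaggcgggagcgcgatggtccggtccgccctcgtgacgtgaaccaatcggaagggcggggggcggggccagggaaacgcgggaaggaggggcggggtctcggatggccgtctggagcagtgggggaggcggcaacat

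In these windows the summit lay 63 bp upstream of the Cdk4 start, with a fold enrichment of 122.7, and 235 bp upstream of the Ccne1 start, with a fold of 85.6. At Cdkn1b the summit lay 12 bp downstream of the start, with a fold of 80.6, and at Cdk2 it lay 160 bp upstream, with a fold of 22.9. The fold is the authors' linear ratio of signal over background at the summit, and the list has a median fold of 6.73. The promoter table held 7 windows for 6 of the 10 genes, with 2 for Ccnd3. Ccnd1, Ccnd2, Ccne2 and Rb1 had no entry, so for these the lower and upper ends of the gene by coordinate are given without saying which is the start.

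The AP-1 motif TGANTCA, searched on both strands, was in none of the 7 promoter windows and in 7.04% of 21045 promoter windows of protein-coding genes. The related CRE motif TGACGTCA was in none of the 7 and in 2.26% of all. Of the E2F motifs, TTTCCCGC or its reverse complement was in 1 of the 7, at Cdk2 from base -140 to -133 relative to the start, and in 1.42% of all, while TTTGGCGC was in none of the 7 and in 0.641% of all. The E-box CACGTG, which reads the same on both strands, was searched after the sequences had been read. It occurred 4 times in the Cdk4 window, beginning 172, 118, 98 and 11 bp before the start, and once in that of Cdk6, at 220 bp before it. Of all promoter windows 7.91% held the E-box and 5, or 0.0238%, held it at least 4 times. The cut of 4 is the count seen in the Cdk4 window, which is itself among the 5. Factors of the Myc family bind this motif. No motif hit overlapped another, and a match is a description of letters, not of binding. A summit lay in only 4 of the 7 windows. Sequence at summits outside the windows, such as the strongest of Ccnd3 and of Ccne1, was not searched.

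A Fos summit lay within 1 kb of a gene end (either end of the span) for all 10 G1 genes, against 62.0% of all protein-coding genes. Of the 6 genes with a given start of transcription, 6 had a summit within 1 kb of it, against 62.2% of the 17274 genes with a given promoter. They had between 7 and 47 summits in their windows, with a median of 32.5, against a median of 16 (interquartile range 5 to 29) over all genes. Of the 10, 9 were above that median, as were 47.9% of all genes, and Ccne1 was the exception. A summit of fold 100 or more occurred in the windows of 3 of the 10, Ccnd3, Ccne1 and Cdk4, and of 26.8% of all genes, so that the genes stood close to the background in this respect. At the gene ends, a fold of 50 or more was reached by Cdk4, Ccne1, Ccne2 and Cdkn1b, 4 of 10 against 17.7% of all genes. That share includes genes without any end summit. Among genes with one, the median of the strongest end fold was 28.3 over the 10 and 27.4 over all 13405, so end summits were of ordinary strength. The median of the strongest summit was a fold of 87.0 over the 10 genes and 55.1 over all genes. These counts are descriptions without a test, and were not matched on gene density or activity.

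**Figure D1:**
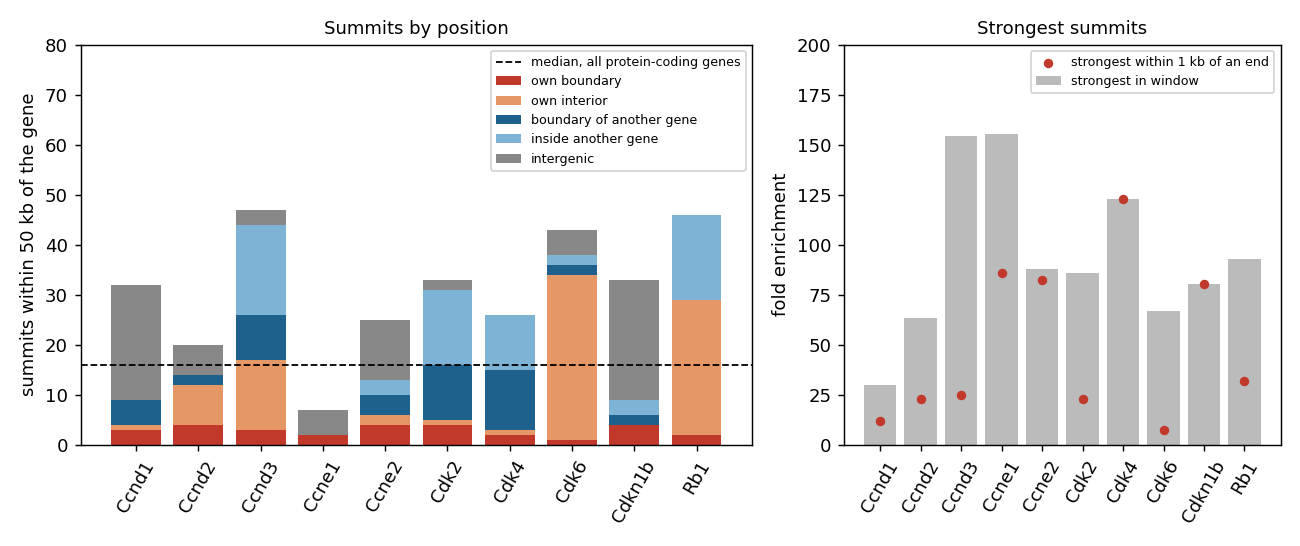
Left, the number of Fos summits within 50 kb of each of the 10 G1 genes, coloured by position, with a dashed line at 16, the median of all protein-coding genes. Right, the fold enrichment of the strongest summit in the window (bars) and of the strongest within 1 kb of a gene end (points). Ccne1 had the fewest summits, 7, but the highest fold, 155.4, and the points of Cdk4 and Cdkn1b meet their bars.

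Most of the signal was ordinary in strength. The 312 summits lay in 169 regions and had a median fold of 6.98 (interquartile range 4.57 to 16.1), against 6.73 (4.09 to 15.4) over the whole list, and 17 of them (5.45%) had a fold of at least 50, against 6.96% of all summits. By position, 29 summits (9.29%) were within 1 kb of an end of their own gene and had a median fold of 11.8. Another 87 (27.9%) were deeper inside the gene, with a median of 6.98. The remainder were 80 in intergenic sequence, 47 within 1 kb of an end of another protein-coding gene and 69 inside another gene, with medians of 6.73, 9.14 and 6.01. For 174 of the 312 (55.8%), the G1 gene was the nearest protein-coding gene, 8 of them inside another gene too. Assignment rests on distance alone, and exons and introns were not told apart.

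The number of overlapping fragments at a summit, its pileup, follows from the fold, because all folds in the list were whole steps above a single background of 3.16 fragments per base. Pileups are given with exact 95% Poisson intervals, which cover counting error only. The sources used here do not state whether PCR copies of a fragment were removed. Any that remained are counted like separate molecules. At the gene ends the pileups fell into 4 levels. Cdk4 had 509 fragments (466 to 555), above all the others. Ccne1 with 355 (319 to 394), Ccne2 with 341 (306 to 379) and Cdkn1b with 334 (299 to 372) had overlapping intervals and were not told apart. Rb1 with 131 (110 to 155), Ccnd3 with 102 (83.2 to 124), Ccnd2 with 95 (76.9 to 116) and Cdk2 with 94 (76.0 to 115) followed, and neighbours in this order had overlapping intervals. Ccnd1 with 48 (35.4 to 63.6) and Cdk6 with 30 (20.2 to 42.8) were lowest and also overlapped. Some of these summits lay in a neighbour as well. The values of Ccnd3, Ccnd1 and Cdk2 come from summits with Bysl, LTO1 and Pmel as the nearest gene. The best end summit with the G1 gene itself as nearest had 49 fragments (36.3 to 64.8) at Ccnd3 and 35 (24.4 to 48.7) at Ccnd1. At Cdk2 it had 43 (31.1 to 57.9), inside both Cdk2 and Pmel. For Cdk6 the low value does not describe its annotated start, which lies inside the span and more than 1 kb from the end. The summit 715 bp downstream of that start had 100 fragments (81.4 to 122).

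**Figure D2:**
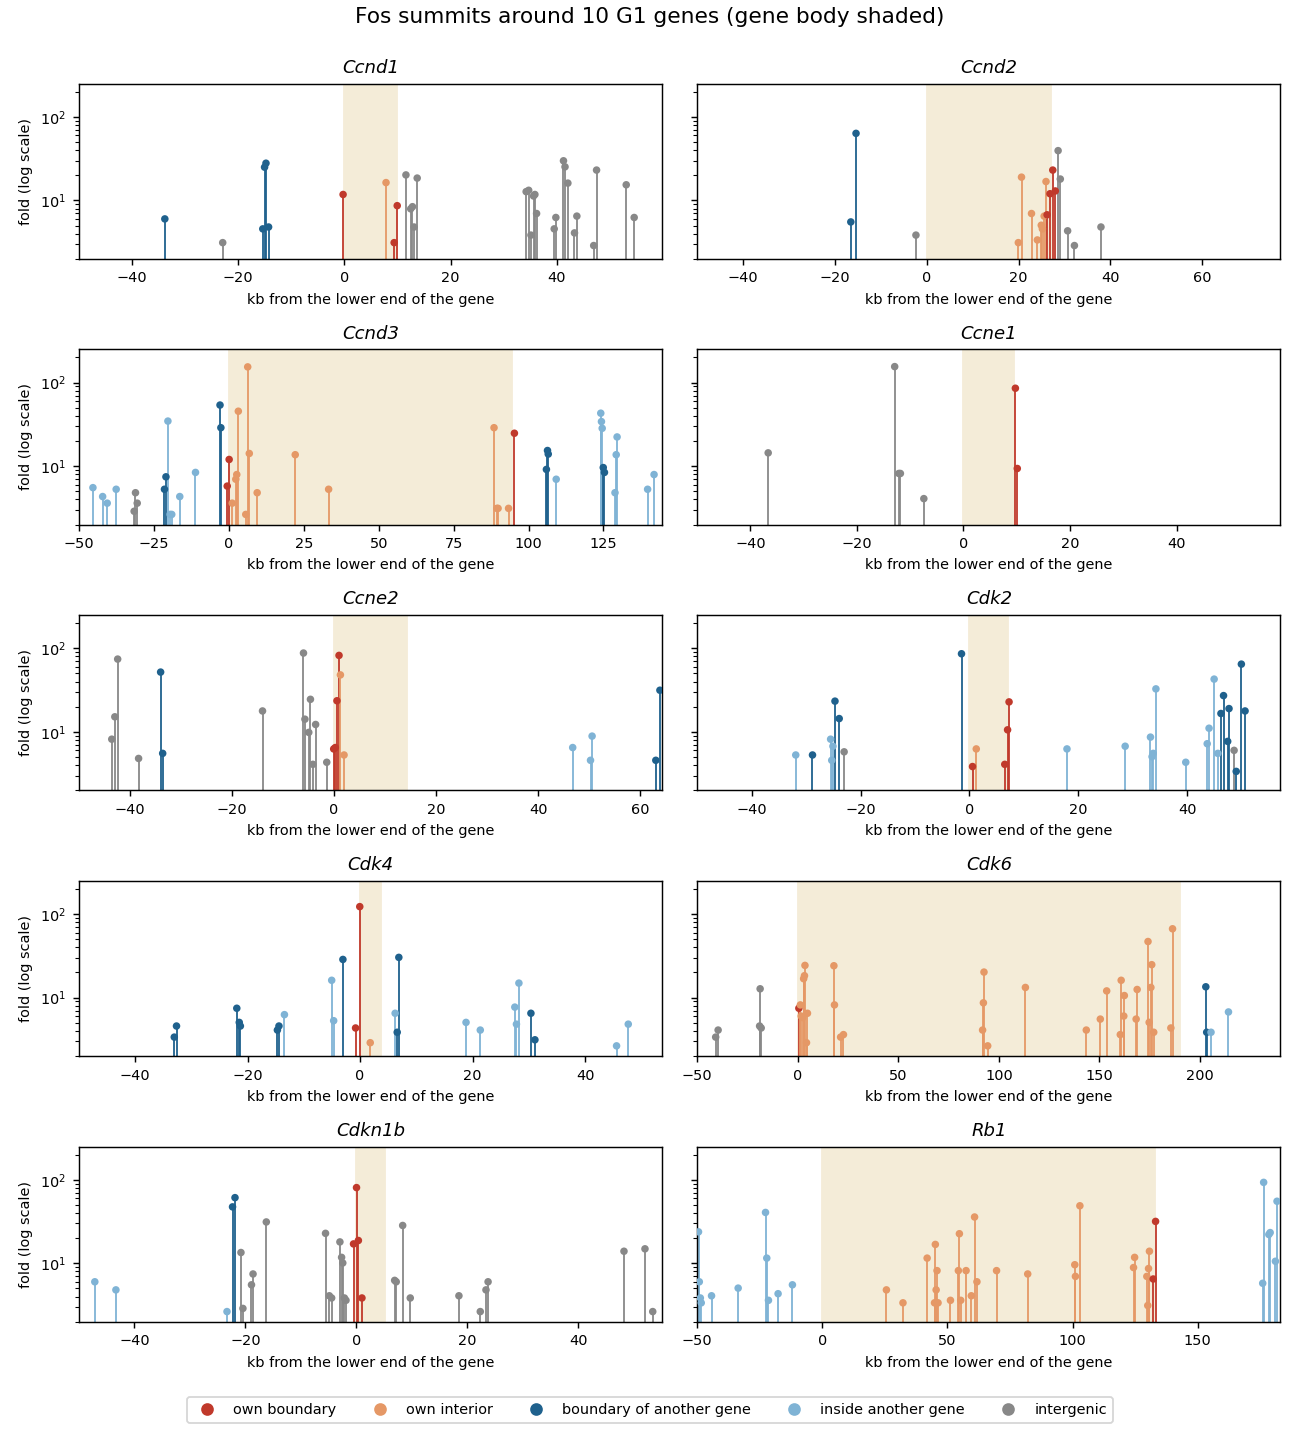
Fos summits in the windows of the 10 G1 genes, as distance in kb from the lower end of the gene by coordinate (x) and fold enrichment on a log scale (y), with the gene shaded and each summit coloured by position. Cdk6 has most of its summits towards the ends of the gene, Ccnd1 carries a group well above it, and Ccne1 has none inside.

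Among the D cyclins, which couple growth signals to Cdk4 and Cdk6, the 3 genes differed in where the signal lay. Ccnd1 (chromosome 7, 144929931 to 144939831) had 32 summits in 14 regions, and 17 of them lay more than 20 kb above the gene. Its strongest summit, at position 144971205, had 123 fragments (102 to 147), a fold of 29.8, and lay 31374 bp above the gene, in intergenic sequence with Ccnd1 as the nearest gene. That is the lowest maximum of the 10 genes, and 34.0% of all protein-coding genes had a lower one. Near the gene, the summit 245 bp below the lower end had a fold of 11.8, that 52 bp above the upper end a fold of 8.66, and that 1694 bp above it a fold of 20.2. A pair of summits of folds 27.9 and 25.02 lay at a boundary of the neighbouring gene LTO1. Ccnd1 was thus bordered by many summits of moderate strength and no strong one.

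Ccnd2 (chromosome 6, 127125162 to 127152188) had 20 summits in 10 regions. A single region of 5607 bp at its upper end held 11 of them, the most in any region in the 10 windows. The strongest in that region, 1575 bp above the gene at position 127153763, had 163 fragments (139 to 190) and a fold of 39.4, and the best within 1 kb of the end, at 414 bp, a fold of 23.1. A stronger summit, with a fold of 63.5 and 263 fragments (232 to 297), lay 15400 bp below the gene but only 210 bp from Tigar, which encodes a fructose bisphosphatase induced by p53. Inside the gene, the summit at 6395 bp from the upper end reached a fold of 19.0. The lower 19.9 kb of the gene held none, the lowest summit inside being 19941 bp from the lower end.

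Ccnd3 (chromosome 17, 47505051 to 47599689) had the most summits of the 10 genes, 47 in 27 regions, more than 91.4% of all protein-coding genes had. Counted per 100 kb of its window of 194.6 kb it had 24.1 summits, more than 77.6% of all genes had. Its strongest, at position 47511345, lay inside the gene 6294 bp downstream of the outer start and had a fold of 154.2 with 640 fragments (591 to 692). A second interior summit 3165 bp from the same start had a fold of 45.5. The starts themselves were weaker. The summit 102 bp downstream of the outer start had a fold of 12.03, and that 61 bp downstream of the inner start, at position 47593528, had a fold of 28.9. Of the 47 summits, 16 had Ccnd3 as the nearest gene. The others lay among 6 neighbouring genes, such as Taf8, a subunit of the transcription factor TFIID, with a summit of fold 53.9 at 2946 bp below Ccnd3.

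The E cyclins, which activate Cdk2 at the end of G1, had strong summits within 1 kb of a gene end. That of Ccne2 was near this limit, at 972 bp. Ccne1 (chromosome 7, 38097984 to 38107490, minus strand) had 7 summits in 4 regions and no other protein-coding gene in its window. The summit 235 bp upstream of its start had a fold of 85.6. The strongest of the 10 genes, at position 38085068, lay 12916 bp past the 3′ end of Ccne1 and had a fold of 155.4 with 645 fragments (596 to 697), and only 0.619% of all summits were as high. Its interval overlapped that of the Ccnd3 interior summit, so these leading sites were not told apart. The other 5 had folds of 4.09 to 14.4, and none lay inside the gene. By number Ccne1 was poor, above 29.8% of all genes, but by its maximum it was above 89.3% of them.

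Ccne2 (chromosome 4, 11190433 to 11204779) had 25 summits in 11 regions and 4 of fold 50 or more, the most of the 10 genes. The strongest lay 5995 bp below the gene at position 11184438, with a fold of 87.8 and 364 fragments (328 to 403). The summit 972 bp inside the lower end had a fold of 82.3, and its interval of 306 to 379 fragments overlapped. Both had Ccne2 as the nearest gene. The region of 2462 bp at the lower end held 6 summits, and the summit next to the end, 74 bp below it, had a fold of only 6.25. Folds of 74.3 and 52.0 were reached 42416 and 33997 bp below the gene, where Trp53inp1, a p53-induced gene, was nearest.

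**Figure D3:**
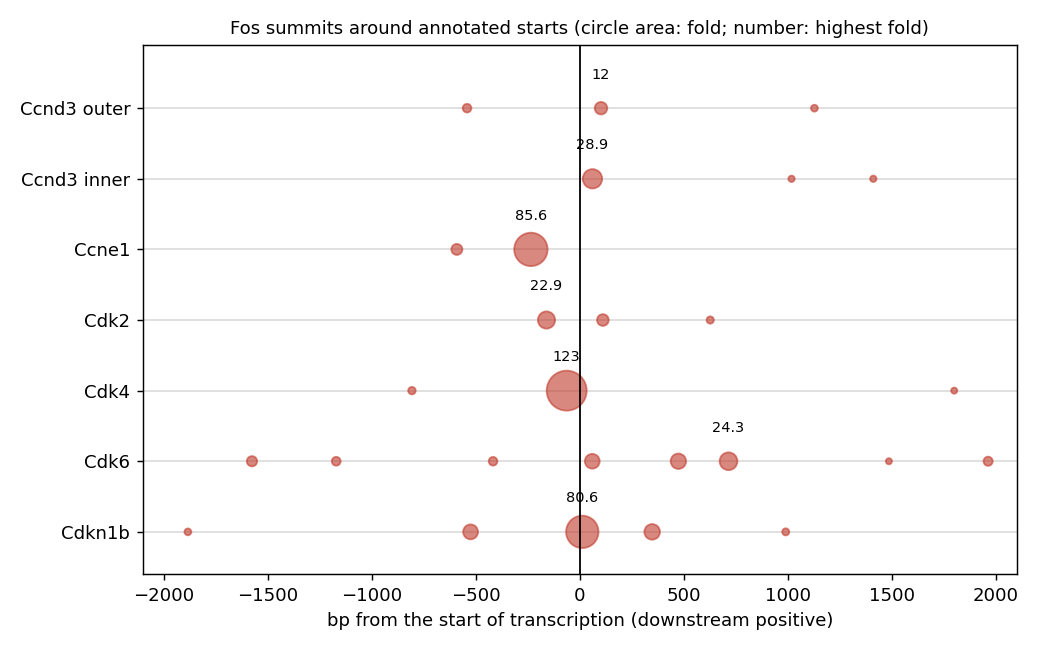
Fos summits within 2000 bp of the 7 annotated starts of transcription of 6 G1 genes, by distance in bp from the start (x, downstream positive), with circle area in proportion to fold and the highest fold of each row printed. The largest circles, at Cdk4, Ccne1 and Cdkn1b, lie within 235 bp of the start, and those of Cdk6 and Ccnd3 are smaller.

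The kinase genes differed in layout. Cdk4 (chromosome 10, 127063535 to 127067288, plus strand), the kinase partner of D cyclins, had 26 summits in 16 regions, 2 of them at its ends. The summit at position 127063472 had 509 fragments, which placed its gene-end fold of 122.7 above that of 96.3% of all genes. All others in its window had folds of 30.3 or less, and the median was 4.93, the lowest of the 10 genes. The window held 9 other protein-coding genes, and only 3 of the 26 summits had Cdk4 as the nearest. Those of fold 30.3 and 28.6 lay at boundaries of Tspan31 and Marchf9.

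Cdk2 (chromosome 10, 128697938 to 128705051, minus strand), the kinase partner of cyclin E, had 33 summits in 15 regions, of which 4 lay inside Cdk2, all of them also inside the overlapping gene Pmel. Its own start had summits of folds 22.9 and 10.6 at 160 bp upstream and 111 bp downstream. The strongest in its window, with a fold of 86.1 and 357 fragments (321 to 396), lay 1457 bp past the 3′ end of Cdk2 and inside Pmel, a gene of pigment granules. It was also within 1 kb of an end of a protein-coding gene other than Cdk2. A summit of fold 64.7 lay 13 bp from Pym1, and those of 42.8 and 32.7 lay inside the diacylglycerol kinase gene Dgka. Most of the count at Cdk2 therefore came from a dense neighbourhood of 6 other genes. The summit 160 bp upstream of the start was inside Pmel as well.

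Cdk6 (chromosome 5, 3341004 to 3531008), the other partner of D cyclins, had 43 summits in 26 regions, 34 of them inside its span of 190005 bp. Counted per 100 kb of window it had 14.8 summits, against a median of 23.0 over the 10 genes and 11.1 over all genes. Its strongest, at position 3527339, lay 3669 bp inside the upper end and had a fold of 66.6 with 276 fragments (244 to 311). The next, 15863 bp inside that end, had a fold of 46.9, and 16 of the 34 lay in the upper 50 kb of the gene. Between 22747 and 91906 bp from the lower end, a stretch of 69.2 kb, no summit was called. At the other side, 9 lay in the lower 5 kb, in and near a region of 3580 bp around the annotated start, with folds of 16.8 at 60 bp and 24.3 at 715 bp downstream of it. That start is inside the span used here, so the summit within 1 kb of the gene end had a fold of only 7.46.

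Both brakes carried signal at a gene end. Cdkn1b (chromosome 6, 134920401 to 134925525, plus strand), which encodes the inhibitor p27, had 33 summits in 19 regions, or 31.4 per 100 kb, the densest of the 10 windows. The summit 12 bp downstream of its start, at position 134920413, had 334 fragments and was the strongest in the window, as at Cdk4 and at none of the other 8 genes. It was flanked by summits of folds 17.1 at 525 bp upstream and 18.8 at 348 bp downstream. Intergenic summits with Cdkn1b as the nearest gene had folds of 28.4 at 3206 bp above and 22.9 at 5573 bp below the gene. Those of 61.1 and 47.4 lay 21886 and 22330 bp below Cdkn1b, at a boundary of the orphan receptor gene Gpr19.

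Rb1 (chromosome 14, 73192858 to 73325951), whose protein holds E2F factors inactive, had 46 summits in 27 regions, 28 of them inside the gene. The summit 86 bp above its upper end had a fold of 31.8 and 131 fragments. Inside, the strongest, at position 73295793, had 202 fragments (175 to 232) and a fold of 48.8, and the next, 72237 bp from the upper end, a fold of 35.8. No summit was called in the lower 25.6 kb of the gene, the lowest lying 25631 bp from that end. The strongest in the window had a fold of 93.1 and lay 43268 bp above the gene, inside Itm2b, so the maximum of this window lies in a neighbour of Rb1.

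The other genes of G1 control were described by the same counts. Of 25 such genes (other inhibitors of the INK4 and CIP/KIP families, pocket proteins, E2F and DP factors, the kinase that activates CDKs, cyclin A2, the transcription factor Myc, and regulators of CDK activity or of the turnover of G1 proteins), a summit at a gene end was present for 23, against the 62.0% of all genes. They had 2 to 59 summits with a median of 28, against 32.5 for the 10 genes, and 13 of 25 had a summit of fold 100 or more, against 3 of 10 and 26.8% of all genes. E2f2, an activating E2F factor, had the most summits, 59, followed by Cks1b, a small CDK-binding subunit, with 58 and E2f4, a repressive E2F factor, with 47. The highest folds were 233.1 at E2f3, 285 bp above the gene, 172.7 near Cks1b, where Zbtb7b was nearest, and 158.0 at Cdkn2d, which encodes an INK4 inhibitor of Cdk4 and Cdk6. Cdkn1a, which encodes the p53 target p21, and Skp2, the ubiquitin ligase subunit that marks p27 for degradation, had no summit within 1 kb of an end. The nearest summit to an end of Cdkn1a was at 2794 bp, its window held 32, and the strongest had a fold of 152.5 with Srsf3 as the nearest gene. Skp2 had 14 summits, the nearest at 14364 bp from an end.

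**Figure D4:**
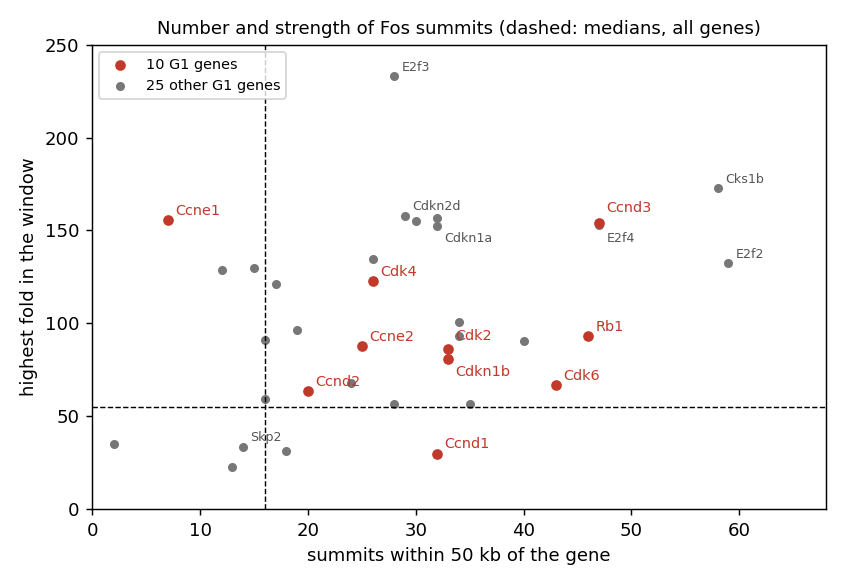
Number of Fos summits within 50 kb (x) and highest fold in the window (y) for the 10 G1 genes (red) and 25 other G1 genes (grey), with dashed lines at the medians of all protein-coding genes, 16 summits and a fold of 55.1. Ccne1 combines 7 summits with a fold of 155.4, and Ccnd1 combines 32 with 29.8.

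The labelled tissue was set beside marker genes. These were chosen with earlier results of these data known, so they are not an independent check of the label. The 12 markers of colonic epithelium had 32 to 98 summits in the window, with a median of 56. All 12 had a summit at a gene end, against 62.0% of all genes. Of 16 markers of leukocytes, fibroblasts and muscle, and endothelium, 4 had one, namely Itgam, Col1a1, Pdgfra and Pdgfrb, and the 3 lists had medians of 14, 13.5 and 13 summits. The leukocyte gene Ptprc had no summit in its window. The median of the G1 genes, 32.5, lay between those of the epithelial and the other lists. By the strongest summit in the window the order differed, with a median fold of 87.0 for the G1 genes, 137.8 for epithelial markers, 91.5 for leukocyte markers, 98.7 for fibroblast and muscle markers and 55.6 for endothelial markers. A fold of 100 or more was present near 10 of 12 epithelial markers, 3 of 6 leukocyte, 3 of 6 fibroblast and muscle and 1 of 4 endothelial markers. Of all genes 26.8% had such a summit. Some marker windows overlap, so that 1 summit can count for more than 1 marker. Krt8 and Krt18 had the same strongest fold, 249.4, and that of Pdgfrb, 120.7, was also that of the epithelial marker Cdx1. G1 genes are used by any dividing cell, and the part of other cell types in their signal was not tested.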

How the data were processed

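The submitters' processing notes name Bowtie2, MACS2 and the mm10 build for these CUT&Tag libraries. The sources used here give no versions or commands and do not say which of the 4 libraries went into the peak list. The deposited list has 1 line per summit, 178981 in 108406 regions. The authors' score column, the deposited fold (a linear ratio) and the deposited −log10 p-value and −log10 q-value are the peak caller's values. They describe and rank summits within the list only.

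Summit positions were made 1-based. All folds were whole multiples of 0.241 within 0.05 steps, which gives (pileup + 1) over (background + 1) with a background of 3.16. A Poisson −log10 p from these pileups matched the deposited value within 0.01 at 100% of 167414 summits where it could be computed. The depth per library is unknown. Gene spans and promoter sequences came from RefSeq tables of GRCm38.p6, whose promoter table gave the strand for 6 of the 10 genes. A gene end means within 1000 bp of either end, and ends come before interiors where classes overlap. No test was run, as the single list has no samples to compare.

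The 10 genes, the 25 other G1 genes, the markers and the naming rule were chosen with earlier results of these data known. The rule named all 10 genes with their strongest summits and nearest genes, and of the other G1 genes the 3 with most summits, the 3 with the highest folds and those without a summit at an end. Neighbouring genes beyond that were named after their values were seen. Python 3.11.15, pandas 2.3.3 and scipy 1.17.1 were used, and window and pileup counting were tested on simulated data.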

Additional observations from a re-analysis of the deposited data

How the results depend on the processing

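With windows of 20 and 100 kb the 10 genes had 195 and 565 summits in place of 312, with medians of 17 and 52.5 against 8 and 28 over all genes. With −log10 q of at least 10 the count was 201, with medians of 21.5 for the 10 genes and 9 over all genes. With 1 summit per region it was 169, and the medians were closer, 15.5 and 10. With only summits whose nearest gene is the G1 gene it was 174, and no median over all genes was taken. With 100 kb the number of genes with a fold of 100 or more was 5 in place of 3, through Cdkn1b and Rb1. The share of all genes at this window was not counted, so the 5 cannot be set against a background. The median of the strongest summit was then a fold of 98 over the 10 genes and 76.2 over all genes. These settings count fewer or more bases or summits by construction. A summit at a gene end was kept by 9 of 10 genes at 500 bp, all but Cdk6, against 57.6% of all genes. Ccne2 was kept through weaker summits, as its summit of fold 82.3 lay 972 bp from the end. It was kept by 8, all but Ccnd2 and Cdk6, without regions wider than 3000 bp, against 58.8% of all genes, and with 1 summit per region, against 59.4%. Of the 6 genes with a given start, 6 had a summit within 1 kb of it. The strongest fold, with the G1 gene as the nearest, was 10.6 at Cdk2, 39.4 at Ccnd2 and 48.8 at Rb1, in place of 86.1, 63.5 and 93.1.

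No paired analysis was possible because the list has no values per library, and for the same reason no library was left out in turn. Depth per library is unknown, and a window without a summit is not evidence that Fos is absent there.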

Other observations

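Several of the strongest summits around the G1 genes lay at or in their neighbours. The summit of fold 86.1 past the 3′ end of Cdk2 lay inside Pmel and within 1 kb of an end of a gene other than Cdk2. That of fold 64.7 lay 13 bp from Pym1. That of fold 63.5 below Ccnd2 lay 210 bp from Tigar, and that of fold 93.1 above Rb1 lay inside Itm2b. In the windows of Cdk4 and Cdk2, which held 9 and 6 other protein-coding genes, 3 of 26 and 4 of 33 summits had the kinase gene as the nearest, the 4 at Cdk2 being inside Pmel as well, against 39 of 43 for Cdk6 and 7 of 7 for Ccne1.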
